A study of Sus scrofa with 12 samples.

Results

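Genes of DNA replication and of mitosis were followed across fresh and vitrified pig blastocysts. The set is a list of 41 genes chosen by function, with earlier results of these data known. Of these, 20 act in replication or in the passage from G1 to S phase and 21 act in mitosis. Gene identifiers of the deposited table were matched to pig symbols, and 37 of the 41 genes had a row among 31781 identifiers. These were 18 replication genes and 19 mitosis genes. MCM5, RRM2, AURKA and MKI67 had no row under that symbol and were not analysed here. A filter on low values kept 36 of the 37 for testing (17 replication and 19 mitosis genes), and CCND1 did not pass it. 0 of the 36 passed through the libraries of 1 group only.

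All embryos were blastocysts of the pig (Sus scrofa) made by parthenogenetic activation, in which an egg starts development with no sperm. The fresh control group was not vitrified and had 3 libraries. The other groups, named vitrification, vitrification I and vitrification II, had 2, 3 and 3 libraries, and the third sample of the vitrification group was not analysed here. Vitrification is cooling so fast that water sets as a glass instead of ice. Liquid helium is named in the series title. Which group received it is not stated, nor how the 3 vitrified groups differ in coolant, warming or culture time. Libraries were made with Smart-Seq2, which amplifies cDNA from very small inputs. The labels give blastocyst as the source while the protocol speaks of sorted single cells, so a library may hold 1 cell or more. Nothing says that the libraries of a group came from separate embryos, so the p-values describe spread among libraries, which may be technical.

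As background, a cell copies its DNA once per cycle from origins that are licensed in G1 phase. CDC6 and CDT1 help to load the ring of MCM2 to MCM7 onto DNA. At the start of S phase the ring is joined by CDC45 and the GINS complex and becomes the replicative helicase, while PCNA clamps the polymerases to the template. Mitosis is driven by CDK1 with cyclin B. The checkpoint kinases then hold back CDC20, the activator of the anaphase-promoting complex (APC/C), until every chromosome is attached to the spindle. Blastocysts divide quickly, and many of these transcripts are made in a wave around S phase or around G2 and mitosis.

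The deposited unit was read as FPKM, which scales fragments by transcript length and library size, so that levels can be set side by side between genes. Summed FPKM per library ran from 439650 to 591894, and with no counts deposited the depth of sequencing is unknown. Genes above 0 numbered 15383 to 16046 in fresh control, 17726 to 18527 in vitrification, 11550 to 14039 in vitrification I and 15415 to 16204 in vitrification II. The 13 mitochondrially encoded protein genes took 37.6 to 43.9% of FPKM in fresh control, 38.7 to 51.8% in vitrification, 43.8 to 64.3% in vitrification I and 16.9 to 22.1% in vitrification II. The keratins KRT8 and KRT18 of the trophectoderm, the outer layer of the blastocyst, ran from 1097 to 18589 and from 1088 to 4806 FPKM over the 11 libraries. The 12 trophectoderm markers with a row summed to 10627 to 15792 FPKM in fresh control, 7168 to 17523 in vitrification, 2977 to 6352 in vitrification I and 14611 to 22962 in vitrification II. The 9 epiblast markers with a row summed to 91.3 to 168, 46.4 to 78.8, 70.9 to 274 and 213 to 305 FPKM in the same order. KRT8 and KRT18 made up most of the trophectoderm sum in every library, so that sum mainly follows these keratins. Among its other markers, TEAD4, ELF3 and CLDN4 were lower in every vitrification I library than in every fresh one, whereas TFAP2A and PTGS2 were higher. The list's mean log2(FPKM + 1) differed less, at 6.02 for fresh control and 5.69 for vitrification I. Of 8 cumulus and granulosa markers with a row, HAS2 and PTX3 were listed at 0 in every library and the list summed to at most 4.09 FPKM. Of 8 leukocyte and erythroid markers, PTPRC and ALAS2 were listed at 0 throughout and the sum reached 20.2. These measures move with the groups, and their part in the results was not tested, except that the counts below are also given with FPKM rescaled to the total outside the mitochondrial genome.

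Vitrification II had the highest mean summed level of both gene sets, and vitrification I the lowest. The 18 replication genes summed to 190 to 260 FPKM in the fresh libraries, to 231 and 232 in vitrification, to 65.9 to 206 in vitrification I and to 477 to 605 in vitrification II. For the 19 mitosis genes the sums were 175 to 433, 308 and 335, 107 to 294, and 645 to 908 FPKM. Both sums in every vitrification II library exceeded those of all 8 other libraries. TYMS and PCNA made up most of the mean replication sum in each group. The median log2(FPKM + 1) of all genes kept was also highest in vitrification II, at 2.82 to 2.98, against 1.84 to 2.63 in the other 8 libraries. Where a library holds more than 1 cell, fewer cells of a type and less RNA per cell cannot be told apart. In fresh control and vitrification I, 1 library was highest for most of the genes. Fresh control 1 was the highest fresh library for 30 of 37 genes, against 56.2% of all genes kept. Vitrification I library 2 was the highest of its group for 29 of 37, against 54.2%, and library 3 the lowest for 30 of 37, against 52.4%. In vitrification II, libraries 1, 2 and 3 were highest for 15, 17 and 5 of 37 genes, against 36.7, 28.9 and 34.4% of all genes kept. In vitrification, libraries 1 and 2 were highest for 15 and 22 of 37, against 31.5 and 68.5%.

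**Figure D1:**
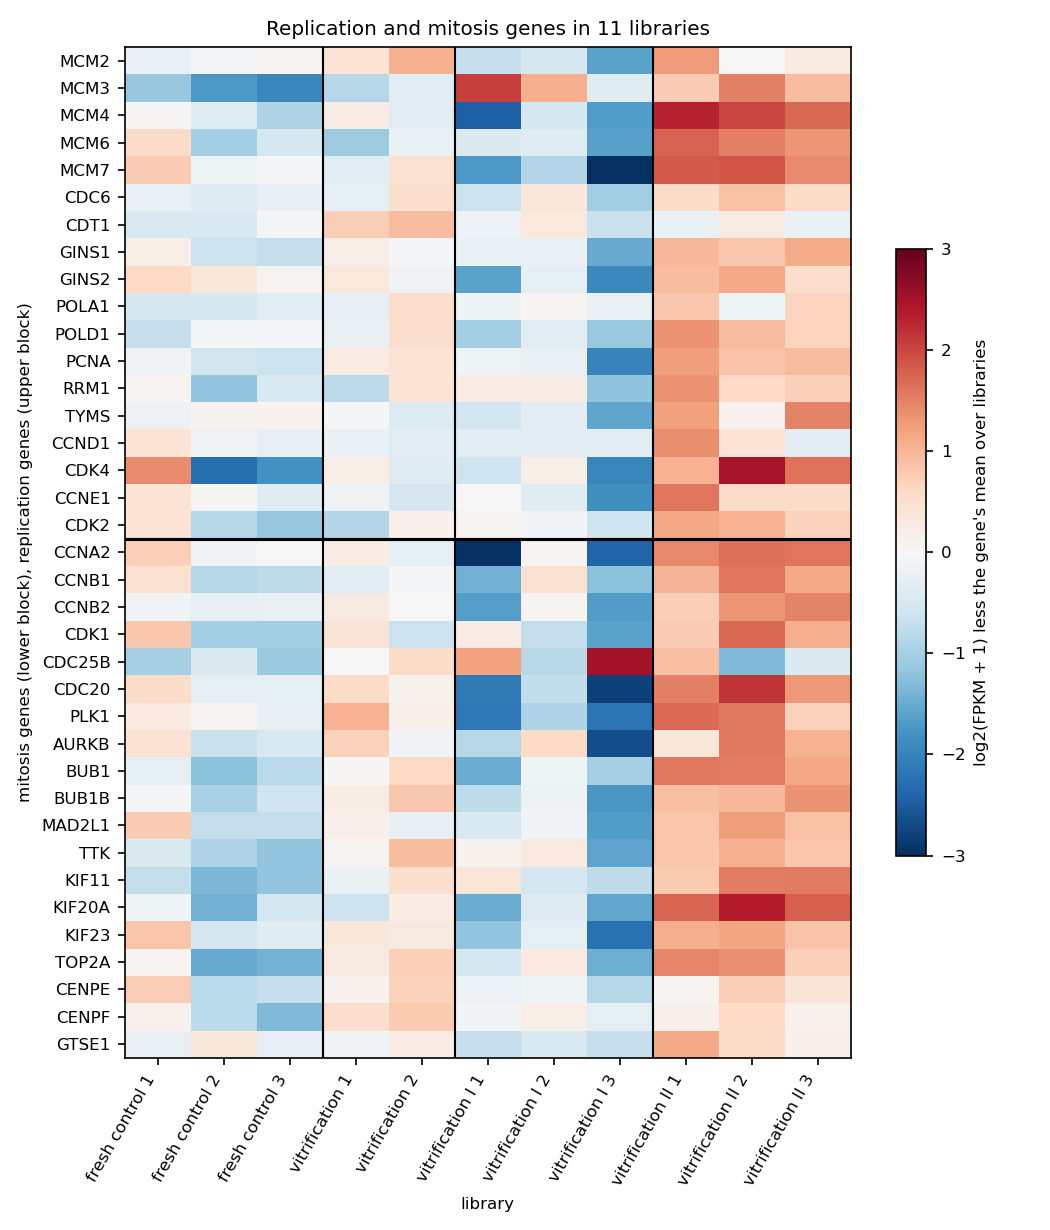
Level of each gene by library. Rows are the 37 genes with a row, replication above and mitosis below the black line; columns are the 11 libraries by group; colour is log2(FPKM + 1) less the gene's mean over libraries, with the colour scale ending at 3 in either direction. The 3 vitrification II columns are red for most genes, vitrification I library 3 is blue for most, and MCM3 and CDC25B stand out as red rows in part of vitrification I.

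In the accounts that follow, FPKM values are listed in the order of the library numbers. A change is the difference of group means of log2(FPKM + 1) ± SE from a limma fit to all 11 libraries. Adjusted p is Benjamini-Hochberg over the 9411 genes kept, with 0.05 as the threshold for calling a gene. The median change of all genes was 0.62 in vitrification II against fresh control and -0.06 in vitrification I against fresh control. Called changes of the listed genes against fresh control are therefore also given relative to that median. Changes of genes of the other lists are given without it. Identifiers of the genes that recur below are ENSSSCG00000025488 for MCM3, ENSSSCG00000006273 for MCM4, ENSSSCG00000032180 for MCM7, ENSSSCG00000003949 for CDC20, ENSSSCG00000026748 for PLK1, ENSSSCG00000030469 for BUB1, ENSSSCG00000010471 for KIF11 and ENSSSCG00000014326 for KIF20A.

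The MCM subunits gave the widest contrasts among the replication genes. MCM4 stood at 6.37, 4.62 and 2.77 FPKM in fresh control, 7.38 and 4.68 in vitrification, 0.318, 4.03 and 1.27 in vitrification I, and 34.8, 28.1 and 22.7 in vitrification II. MCM6 read 12.5, 3.45 and 5.27 in fresh control, 3.31 and 6.87 in vitrification, 5.63, 6.0 and 1.93 in vitrification I, and 29.5, 24.8 and 21.6 in vitrification II. MCM7 had 20.9, 10.8 and 11.5 in fresh control, 9.39 and 16.6 in vitrification, 2.88, 5.98 and 0.346 in vitrification I, and 45.4, 46.4 and 33.6 in vitrification II. For these 3 subunits the lowest vitrification II library lay above the highest of the other 8, and for MCM7 the 3 vitrification I libraries lay below all others. Against fresh control, MCM4 rose in vitrification II by 2.44 ± 0.46 (relative 1.81, adjusted p = 0.00252). MCM6 rose by 1.85 ± 0.47 (relative 1.23, adjusted p = 0.0113), and MCM7 by 1.52 ± 0.51 (relative 0.90, adjusted p = 0.0396). In vitrification I, MCM7 fell by 2.15 ± 0.51 on the log2 scale (relative -2.09, adjusted p = 0.0103), while MCM4 and MCM6 did not pass the test (adjusted p = 0.103 and 0.496).

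MCM3 did not follow the other subunits. Its values were 2.48, 1.33 and 1.00 FPKM in fresh control, 3.25 and 5.12 in vitrification, 31.3, 15.5 and 5.02 in vitrification I, and 12, 21 and 13.7 in vitrification II. Both vitrification I and vitrification II lay above every fresh library, and the ranges of vitrification I and II overlapped. MCM3 rose against fresh control by 2.54 ± 0.51 in vitrification I (relative 2.61, adjusted p = 0.00431) and by 2.67 ± 0.51 in vitrification II (relative 2.05, adjusted p = 0.00256). Vitrification II minus vitrification I was 0.13 ± 0.51 (adjusted p = 0.857). Of the summed FPKM of the 5 subunits with a row, MCM3 made up 5.64, 5.97 and 4.38% in fresh control, 12.2 and 13.1% in vitrification, 76.1, 47.3 and 58.2% in vitrification I, and 9.36, 17.1 and 14.5% in vitrification II. It was the most abundant subunit in the 3 vitrification I libraries, whereas MCM7 was the most abundant in the other 8. The share was computed after the values had been seen and is given as a description.

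MCM2, the remaining subunit, had 1.71, 2.11 and 2.31 FPKM in fresh control, 3.24 and 5.70 in vitrification, 0.978, 1.24 and 0.0532 in vitrification I, and 6.74, 2.17 and 2.84 in vitrification II. The vitrification I libraries were the lowest 3 of the 11. MCM2 was not called against fresh control in vitrification I (-0.86 ± 0.41, adjusted p = 0.158) or in vitrification II (0.58 ± 0.41, adjusted p = 0.306), and the latter lies at the median of all genes (relative -0.04).

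**Figure D2:**
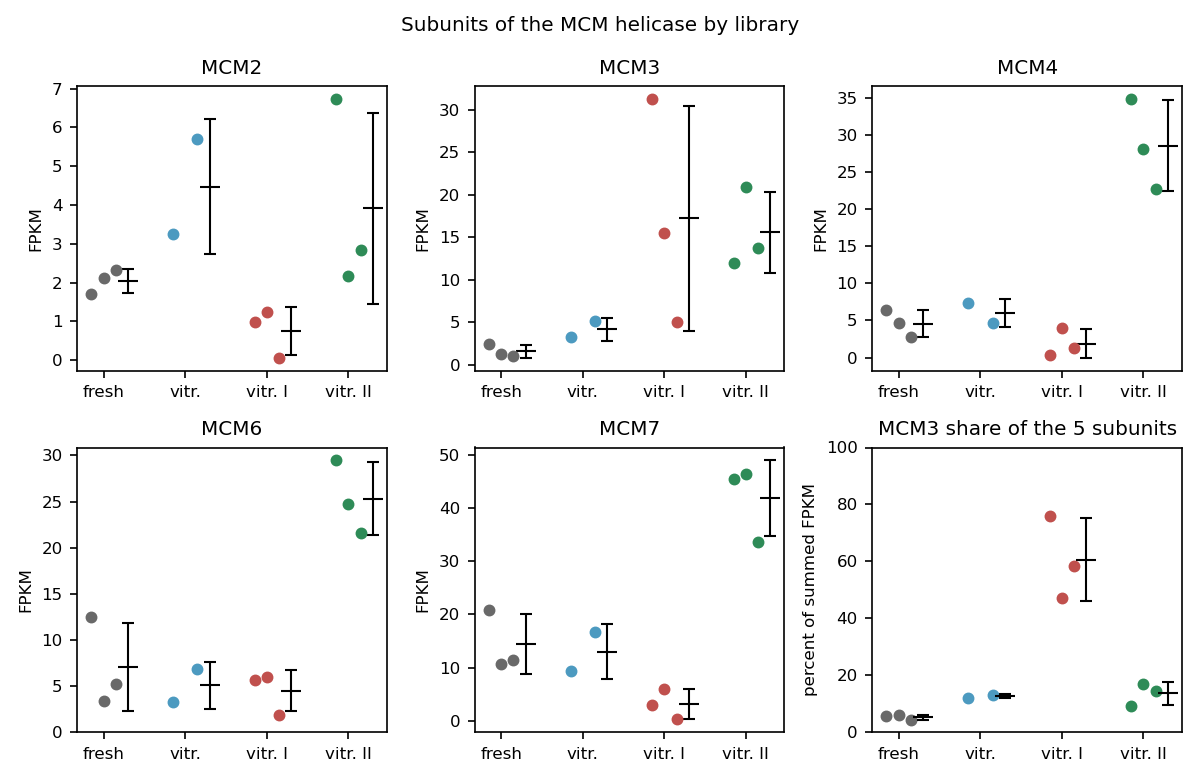
FPKM of the 5 MCM subunits and the share of MCM3 in their sum (percent) by group. Points are libraries, and the bar beside them is the mean ± SD. MCM4, MCM6 and MCM7 peak in vitrification II, while MCM3 is high in vitrification I as well and makes up 47.3 to 76.1% of the sum there.

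The loading factors CDC6 and CDT1 were near or below 3 FPKM in every library. CDC6 had 0.788, 0.593 and 0.759 FPKM in fresh control, 0.710 and 1.91 in vitrification, 0.315, 1.62 and 0 in vitrification I, and 2.01, 2.81 and 2.06 in vitrification II. All 3 vitrification II values exceeded the other 8, but its change against fresh control missed the threshold (0.94 ± 0.37, relative 0.31, adjusted p = 0.0707). CDT1, which is degraded in S phase, was highest in vitrification (1.75 and 2.09 FPKM) and ran from 0.0323 to 1.03 FPKM in the other 9 libraries. It was called in no comparison.

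GINS1 and GINS2, subunits of the GINS complex, parted in vitrification I. GINS1 stood at 5.84, 2.88 and 2.62 FPKM in fresh control, 5.71 and 4.73 in vitrification, 4.16, 4.18 and 1.08 in vitrification I, and 10.9, 9.32 and 11.8 in vitrification II. GINS2 stood at 8.88, 7.27 and 5.95 in fresh control, 7.12 and 5.14 in vitrification, 1.16, 4.42 and 0.703 in vitrification I, and 11.5, 13.3 and 8.51 in vitrification II. GINS1 in vitrification II lay above all other libraries, whereas GINS2 in vitrification II overlapped fresh control and in vitrification I lay below it. GINS1 rose in vitrification II (1.34 ± 0.42, relative 0.72, adjusted p = 0.0288). GINS2 fell in vitrification I by 1.61 ± 0.43 (relative -1.55, adjusted p = 0.0173) and was not called in vitrification II (0.53 ± 0.43, adjusted p = 0.371). GINS1 in vitrification I differed from fresh control by -0.26 ± 0.42 (adjusted p = 0.704).

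Of the polymerase genes, POLD1, the catalytic subunit of polymerase delta, had 0.553, 1.47 and 1.45 FPKM in fresh control, 1.16 and 2.53 in vitrification, 0.250, 1.00 and 0.165 in vitrification I, and 5.38, 3.77 and 3.02 in vitrification II. The clamp gene PCNA had 49.7, 36.6 and 34.0 in fresh control, 63.4 and 71.0 in vitrification, 48.5, 45.9 and 12.5 in vitrification I, and 128, 98.0 and 102 in vitrification II. In both genes vitrification II was above all 8 other libraries. Against fresh control POLD1 rose by 1.23 ± 0.36 (relative 0.61, adjusted p = 0.0220) and PCNA by 1.44 ± 0.44 (relative 0.81, adjusted p = 0.0282). POLA1, the catalytic subunit of the primase complex polymerase alpha, ran from 0.340 to 0.509 FPKM in fresh control and from 0.737 to 2.35 in vitrification II and was called in no comparison.

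RRM1 and TYMS make DNA precursors, RRM1 as the large subunit of ribonucleotide reductase and TYMS as thymidylate synthase. RRM1 read 7.58, 2.58 and 4.93 FPKM in fresh control, 3.70 and 9.77 in vitrification, 8.56, 8.41 and 2.50 in vitrification I, and 19.7, 11.4 and 12.4 in vitrification II. TYMS, the most abundant replication gene, read 88.5, 108 and 108 in fresh control, 98.2 and 74.8 in vitrification, 67.1, 80.5 and 32.8 in vitrification I, and 237, 109 and 280.1 in vitrification II. RRM1 in vitrification II was above the other 8 libraries, and TYMS in vitrification II library 2 was close to the fresh values while libraries 1 and 3 were far above them. RRM1 rose in vitrification II (1.41 ± 0.49, relative 0.79, adjusted p = 0.0445), and TYMS was not called (0.93 ± 0.42, relative 0.31, adjusted p = 0.111).

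The G1 and S phase kinases were spread more widely within fresh control. CDK4, the partner of D-type cyclins, had 40.8, 2.27 and 3.43 FPKM in fresh control, 17 and 11 in vitrification, 9.29, 17 and 3.01 in vitrification I, and 31.4, 86.3 and 47.3 in vitrification II. CDK2, the partner of cyclin E and cyclin A, had 8.75, 3.04 and 2.31 in fresh control, 2.97 and 7.15 in vitrification, 6.72, 5.97 and 3.86 in vitrification I, and 15.4, 14.1 and 10.8 in vitrification II. Cyclin E1, CCNE1, had 3.72, 2.62 and 1.78 in fresh control, 2.31 and 1.5 in vitrification, 2.57, 1.77 and 0 in vitrification I, and 9.84, 4.25 and 4.17 in vitrification II. Fresh control 1 held more CDK4 than vitrification II library 1, so those groups overlapped, whereas CDK2 and CCNE1 in vitrification II lay above all others. CDK4 rose in vitrification II by 2.61 ± 0.78 (relative 1.98, adjusted p = 0.0242) and CDK2 by 1.5 ± 0.44 (relative 0.88, adjusted p = 0.0236). CCNE1 was not called (0.88 ± 0.47, adjusted p = 0.180). CCND1, cyclin D1, was at most 0.676 FPKM in the first 3 groups and read 2.30, 0.678 and 0 in vitrification II.

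Among the mitosis genes, the cyclins were lowest in 2 of the 3 vitrification I libraries. Cyclin A2, CCNA2, stood at 21.5, 11.9 and 12.8 FPKM in fresh control, 15.0 and 10.1 in vitrification, 0.756, 13.5 and 1.60 in vitrification I, and 36.3, 42.3 and 40.3 in vitrification II. Cyclin B1, CCNB1, stood at 100.5, 39.9 and 43.3 in fresh control, 57.9 and 72.2 in vitrification, 26.5, 101 and 30.6 in vitrification I, and 149.7, 226 and 162 in vitrification II. Cyclin B2, CCNB2, stood at 7.80, 6.54 and 6.99 in fresh control, 10.2 and 8.30 in vitrification, 1.98, 8.88 and 1.93 in vitrification I, and 14.6, 22.1 and 25.1 in vitrification II. Vitrification I library 2 carried all 3 cyclins at levels within or above the fresh range, while libraries 1 and 3 were below it, and vitrification II was above every other library. CDK1, their kinase, had 50.0, 13 and 13.3 in fresh control, 36.8 and 17.6 in vitrification, 32.5, 16.6 and 8.56 in vitrification I, and 48.4, 94.3 and 60.8 in vitrification II. As with CDK4, fresh control 1 overlapped vitrification II. In vitrification II, CCNB1 rose by 1.64 ± 0.49 (relative 1.02, adjusted p = 0.0234), CCNB2 by 1.38 ± 0.45 (relative 0.76, adjusted p = 0.0345) and CDK1 by 1.61 ± 0.55 (relative 0.99, adjusted p = 0.0432). CCNA2 fell in vitrification I by 1.97 ± 0.59 (relative -1.91, adjusted p = 0.0306) although library 2 overlapped fresh control, and in vitrification II its change of 1.35 ± 0.59 missed the threshold (adjusted p = 0.0996).

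CDC25B, a phosphatase that activates CDK1, had its highest mean level in vitrification I. It had 0.804, 1.67 and 0.659 FPKM in fresh control, 2.59 and 4.26 in vitrification, 7.28, 1.04 and 19.5 in vitrification I, and 5.73, 0.442 and 1.65 in vitrification II. The highest value was in vitrification I library 3, which was the lowest of all 11 libraries for 11 of the 19 mitosis genes. CDC25B was called in no comparison, and its change in vitrification I was 1.81 ± 0.68 (adjusted p = 0.0773).

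CDC20 and PLK1, the latter a kinase that acts from mitotic entry to exit, moved in opposite directions in vitrification I and vitrification II. CDC20 had 45.5, 25.6 and 25.6 FPKM in fresh control, 46.5 and 33.2 in vitrification, 6.28, 18.1 and 3.57 in vitrification I, and 90.3, 141 and 77.0 in vitrification II. PLK1 had 5.49, 4.62 and 3.47 in fresh control, 9.91 and 4.95 in vitrification, 0.206, 1.81 and 0.142 in vitrification I, and 16.2, 14.9 and 7.64 in vitrification II. Every vitrification I library lay below every fresh library and every vitrification II library above, in both genes. CDC20 fell by 1.90 ± 0.48 in vitrification I (relative -1.83, adjusted p = 0.0136) and rose by 1.65 ± 0.48 in vitrification II (relative 1.03, adjusted p = 0.0210). PLK1 fell by 1.80 ± 0.44 in vitrification I (relative -1.74, adjusted p = 0.0117) and rose by 1.28 ± 0.44 in vitrification II (relative 0.66, adjusted p = 0.0431). Aurora B, AURKB, the kinase of the chromosomal passenger complex, had 7.55, 3.0 and 3.64 in fresh control, 9.22 and 4.96 in vitrification, 2.56, 8.61 and 0 in vitrification I, and 7.01, 17.9 and 12.1 in vitrification II. Its groups overlapped, and it was not called against fresh control in either group (adjusted p = 0.449 and 0.169).

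Of the spindle checkpoint genes, BUB1, BUB1B and TTK rose in vitrification II and were not called in vitrification I. BUB1, a checkpoint kinase at the kinetochore, had 5.16, 2.19 and 3.31 FPKM in fresh control, 6.71 and 10.3 in vitrification, 1.65, 5.90 and 2.78 in vitrification I, and 21.4, 20.8 and 15.8 in vitrification II. BUB1B, which encodes the CDC20 inhibitor BUBR1, had 2.26, 0.723 and 1.23 in fresh control, 2.98 and 4.92 in vitrification, 1.00, 2.06 and 0.0123 in vitrification I, and 5.31, 5.77 and 7.63 in vitrification II. TTK, the checkpoint kinase MPS1, had 1.74, 0.936 and 0.645 in fresh control, 2.90 and 6.08 in vitrification, 2.97, 3.55 and 0.246 in vitrification I, and 5.56, 6.75 and 5.58 in vitrification II. In these 3 genes vitrification and vitrification II both lay above every fresh library. BUB1 rose in vitrification II by 2.2 ± 0.41 (relative 1.58, adjusted p = 0.00232), BUB1B by 1.63 ± 0.42 (relative 1.00, adjusted p = 0.0130) and TTK by 1.75 ± 0.46 (relative 1.13, adjusted p = 0.0141). In vitrification I none of the 3 passed the test (adjusted p = 0.897, 0.616 and 0.528). MAD2L1, which encodes the CDC20 inhibitor MAD2, had 125, 44.3 and 44.3 in fresh control, 81.7 and 61.5 in vitrification, 52.9, 68.7 and 22.1 in vitrification I, and 132, 177 and 136 in vitrification II. Its vitrification II values exceeded the rest, with fresh control 1 next, and its change missed the threshold (1.22 ± 0.47, adjusted p = 0.0653).

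The motor genes KIF20A and KIF11 had the largest fitted rises of the mitosis genes in vitrification II. KIF11, the motor that pushes spindle poles apart, had 0.959, 0.258 and 0.409 FPKM in fresh control, 1.80 and 3.53 in vitrification, 3.18, 1.25 and 0.894 in vitrification I, and 4.60, 8.35 and 8.55 in vitrification II. KIF20A, a motor of the central spindle needed for cytokinesis, had 7.65, 2.50 and 5.55 in fresh control, 5.13 and 9.99 in vitrification, 2.36, 6.23 and 2.2 in vitrification I, and 30.6, 48.1 and 31.8 in vitrification II. KIF23, the motor subunit of centralspindlin, had 20.9, 7.6 and 8.48 in fresh control, 14.7 and 13.8 in vitrification, 4.43, 9.05 and 1.60 in vitrification I, and 25.2, 27.1 and 21.2 in vitrification II. All 3 motors were highest in the 3 vitrification II libraries, by a narrow margin for KIF23, where fresh control 1 came next. KIF20A rose by 2.67 ± 0.45 (relative 2.05, adjusted p = 0.00116) and KIF11 by 2.39 ± 0.40 (relative 1.77, adjusted p = 0.00113). KIF23 did not pass (1.07 ± 0.48, adjusted p = 0.110). In vitrification I, KIF23 came nearest to a call of the 3 motors (-1.22 ± 0.48, adjusted p = 0.0877).

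**Figure D3:**
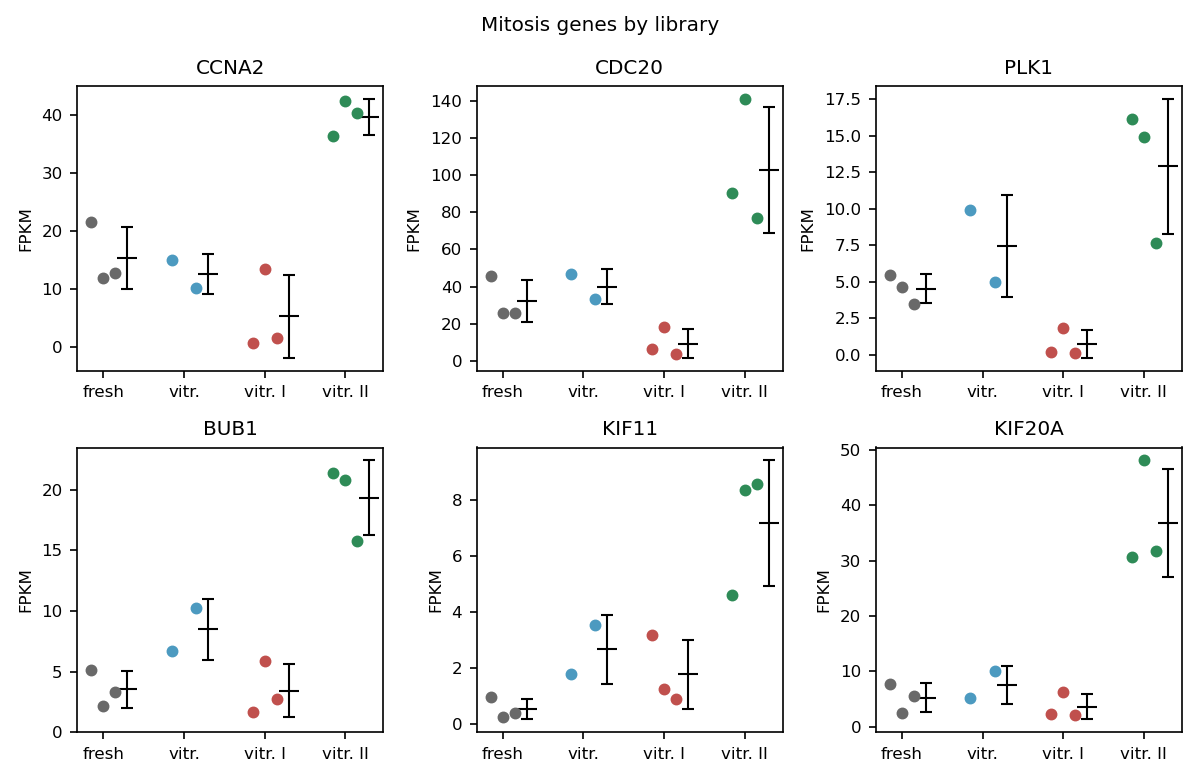
FPKM of 6 mitosis genes by group. Points are libraries, and the bar beside them is the mean ± SD. CCNA2, CDC20 and PLK1 are low in vitrification I libraries 1 and 3 and high in vitrification II, while BUB1, KIF11 and KIF20A are highest in vitrification II and overlap fresh control in vitrification I.

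TOP2A, the topoisomerase that untangles sister chromatids, had 13.3, 3.81 and 4.05 FPKM in fresh control, 15.4 and 21.3 in vitrification, 8.40, 15.8 and 3.91 in vitrification I, and 36.7, 34.4 and 21.3 in vitrification II. Every vitrification II library exceeded the highest fresh value, and the lowest of them was level with the higher vitrification library. TOP2A rose in vitrification II by 2.14 ± 0.50 (relative 1.52, adjusted p = 0.00771). The kinetochore motor CENPE ran from 3.26 to 11.6 FPKM in fresh control and from 6.79 to 11.5 in vitrification II. The kinetochore protein CENPF was highest in vitrification (7.67 and 9.30 FPKM), against 1.40 to 5.57 in fresh control and 5.50 to 8.05 in vitrification II. CENPE and CENPF were called in no comparison. GTSE1, a microtubule-associated protein of G2 phase and mitosis, had 0.398, 1.05 and 0.365 in fresh control, 0.502 and 0.900 in vitrification, 0, 0.191 and 0 in vitrification I, and 2.58, 1.39 and 0.810 in vitrification II. It was lowest in vitrification I and was not called against fresh control in either group (adjusted p = 0.213 and 0.125).

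Comparing vitrification II with fresh control asks how these transcripts differ between that procedure and embryos that were not vitrified. MCM3, KIF20A, CDK4, MCM4 and KIF11 had the largest fitted rises. In all, 10 of 17 replication genes and 11 of 19 mitosis genes were called higher and 0 lower. That is 58.3% of the 36 genes, where 24.6% of all genes were called higher and 1.09% lower (25.7% in all). Groups did not overlap, with vitrification II higher, for 26 of 36 genes, against 44.0% of all genes, and with vitrification II lower for 0, against 3.41%. The median change was 1.34 for replication and 1.38 for mitosis genes, against 0.62 for all genes. Scaling moved these values, since the median change of all genes was 0.62 as deposited, -0.26 with log2 values centred on each library's median, -0.03 with quantile normalization and 0.50 on the scale outside the mitochondrial genome. With median centring the calls of MCM3, MCM4, BUB1, KIF11 and KIF20A held and the other 16 ended, which left 5 of 36 (13.9%) called higher against 3.62% of all genes. Quantile normalization gave the same 5, against 4.11%. Rescaled to FPKM outside the mitochondrial genome, 12 of 36 were called higher, against 12.7%. Those 5 calls held in all alternatives that tested them (21 for KIF11 and 22 for the rest), and each of the other 16 ended in 3 to 13. Counts fell to 6 without fresh control 2, to 8 without fresh control 3, and to 13, 12 and 13 without vitrification II libraries 1, 2 and 3, while POLD1 ended without fresh control 1 and CDK1 without either vitrification library or vitrification I library 2.

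**Figure D4:**
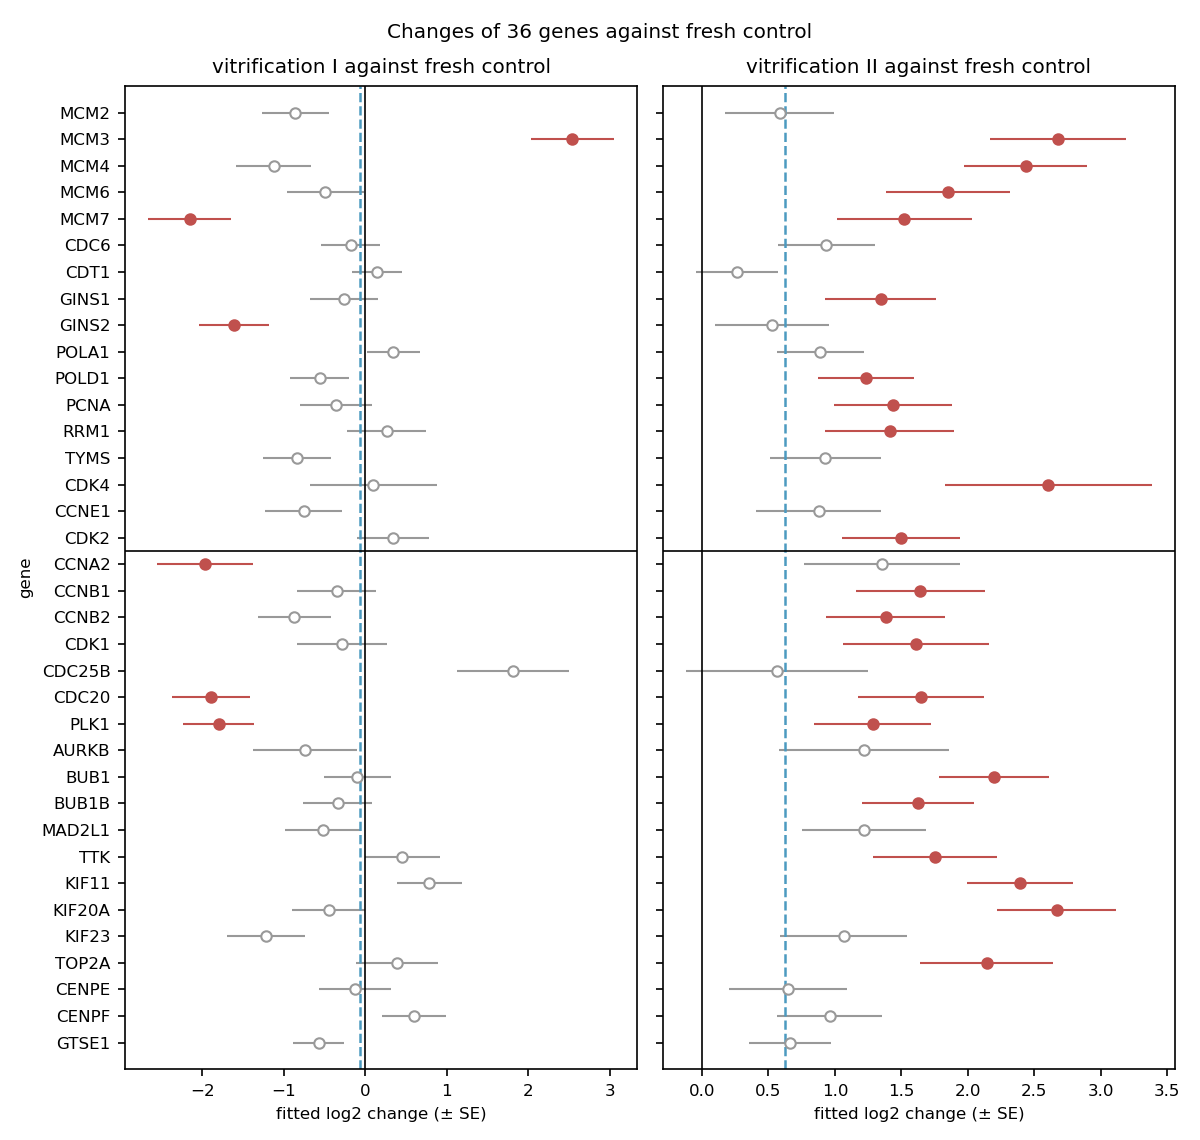
Change of each of the 36 tested genes against fresh control. Points are differences of mean log2(FPKM + 1) with bars of 1 SE, red and filled where called, grey and open otherwise; the dashed blue line is the median change of all 9411 genes and the horizontal line parts replication from mitosis genes. In vitrification II all points lie right of 0 and 32 of 36 right of the median line; in vitrification I MCM3 is called higher and MCM7, GINS2, CCNA2, CDC20 and PLK1 lower.

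In vitrification I against fresh control the picture was mixed, with 1 gene up and 5 down. MCM3 was called higher, and MCM7, GINS2, CCNA2, CDC20 and PLK1 were called lower. These 6 of 36 genes (16.7%) are close to the 18.6% of all genes called in this comparison, of which 8.85% were higher and 9.77% lower. Groups did not overlap for 2 genes in the higher direction and 7 in the lower, against 17.3 and 18.9% of all genes. The median change was -0.36 for replication and -0.35 for mitosis genes. Only the call of MCM3 held in all alternatives that left more than 1 vitrification I library. The other 5 calls ended when no filter on low values was used, and 4 and 3 of them ended without library 1 and without library 3. CCNA2 also ended without any 1 of the fresh libraries and GINS2 without fresh control 2, whereas without vitrification I library 2 the count was 10. With the total outside the mitochondrial genome as the scale, CDC25B joined MCM3 and CCNA2 dropped out, for 2 calls higher and 4 lower, against 14.3 and 5.33% of all genes.

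The direct comparison of vitrification II with vitrification I separated the genes furthest. Vitrification II was higher for 13 of 17 replication and 16 of 19 mitosis genes, and 0 were lower. This is 80.6% of the 36 genes, where 34.7% of all genes were called higher and 3.75% lower (38.4% in all). Groups did not overlap for 30 of 36 in the higher direction, against 42.6%, and for 0 in the lower, against 7.07%. MCM7 was higher by 3.68 ± 0.51 (adjusted p = 0.000138), MCM4 by 3.56 ± 0.46 (adjusted p = 0.000100), CDC20 by 3.54 ± 0.48 (adjusted p = 0.000123), KIF20A by 3.12 ± 0.45 (adjusted p = 0.000169) and PLK1 by 3.08 ± 0.44 (adjusted p = 0.000164). The median change of all genes was 0.68, and relative to it these 5 changes were 2.99, 2.88, 2.86, 2.44 and 2.40. CCNA2 (3.32 ± 0.59, adjusted p = 0.000683), GINS2 (2.14 ± 0.43, adjusted p = 0.00153), TYMS (1.76 ± 0.42, adjusted p = 0.00449), MAD2L1 (1.74 ± 0.47, adjusted p = 0.00906), KIF23 (2.28 ± 0.48, adjusted p = 0.00207) and GTSE1 (1.23 ± 0.31, adjusted p = 0.00649) were called here and not in vitrification II against fresh control. So were CDC6 (1.12 ± 0.37, adjusted p = 0.0257), MCM2 (1.44 ± 0.41, adjusted p = 0.0132), CCNE1 (1.63 ± 0.47, adjusted p = 0.0141) and AURKB (1.95 ± 0.64, adjusted p = 0.0254). The genes not called were MCM3, CDT1, POLA1, RRM1, CDC25B, CENPE and CENPF. The 13 calls kept with median centring were MCM4, MCM6, MCM7, GINS2, POLD1, CCNA2, CCNB2, CDC20, PLK1, BUB1, BUB1B, KIF20A and KIF23. They held in every alternative that tested them and left more than 1 vitrification I library. Median centring left 13 of 36 called, against 11.6% of all genes, and 20 calls were kept without vitrification I library 3. Leaving out vitrification I libraries 1 and 2 and vitrification II libraries 1, 2 and 3 ended 3, 1, 4, 6 and 3 calls, with CDK2 among them each time and also without fresh control 2 or 3.

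In vitrification against fresh control 0 of 36 genes were called, where 1.37% of all genes were (1.25% higher and 0.117% lower). In limma 7 of 36 genes (19.4%) had an unadjusted p under 0.05, a share close to that of all genes (1709 of 9411). All 7 were higher in vitrification. They were CDT1 (1.15 ± 0.34, adjusted p = 0.0896), CENPF (1.33 ± 0.44, adjusted p = 0.123), KIF11 (1.23 ± 0.44, adjusted p = 0.151), TTK, TOP2A, BUB1 and BUB1B. Groups did not overlap for 13 of 36 genes, all higher in vitrification, against 25.5% of all genes in that direction and 11.5% in the other. With array weights 3 genes were called, and the share of all genes called in that setting is not given. The group has 2 libraries, which limits what this comparison can show.

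Against vitrification, vitrification I was lower in MCM2, MCM7, CDC20 and PLK1. These 4 of 36 (11.1%) compare with 5.63% of all genes, with 4.42% lower and 1.21% higher. PLK1 fell by 2.36 ± 0.49 (relative -2.10, adjusted p = 0.0177), CDC20 by 2.23 ± 0.53 (relative -1.97, adjusted p = 0.0268), MCM7 by 2.03 ± 0.57 (relative -1.77, adjusted p = 0.0497) and MCM2 by 1.67 ± 0.46 (relative -1.42, adjusted p = 0.0459). Groups did not overlap for 16 of 36, all lower in vitrification I, against 25.9% of all genes in that direction and 8.94% in the other. The 4 calls ended without vitrification library 1 and without vitrification I library 1, and 3 of them ended without vitrification library 2 and without vitrification I library 3, while without vitrification I library 2 the count was 12. MCM2 and MCM7 also ended without fresh control 2 or 3 and without vitrification II library 2 or 3, and MCM7 without vitrification II library 1. Both ended with median centring, on the scale outside the mitochondrial genome, with a pseudocount of 0.1, with array weights and with the replicate block. MCM2 ended with quantile normalization as well. With no filter on low values, or with only those 2 groups fitted, MCM2, MCM7 and CDC20 ended.

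Vitrification II was higher than vitrification in MCM4, MCM6 and KIF20A. These 3 of 36 genes (8.33%) stand beside 5.98% of all genes called, with 5.05% higher and 0.935% lower. KIF20A rose by 2.18 ± 0.50 (relative 1.72, adjusted p = 0.0272), MCM6 by 2.16 ± 0.52 (relative 1.70, adjusted p = 0.0314) and MCM4 by 2.08 ± 0.52 (relative 1.62, adjusted p = 0.0341). Groups did not overlap for 26 genes in the higher direction, against 39.5% of all genes, and for 1, CDT1, in the lower, against 7.27%. With median centring the calls were MCM6 and KIF20A higher and CDT1 lower, against 1.29 and 3.09% of all genes. All 3 calls ended without either vitrification library, without any 1 of the vitrification II libraries, and on the scale outside the mitochondrial genome.

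Over the 4 groups at once, the moderated F test called 27 of 36 genes (75%), against 42.7% of all genes. The smallest adjusted p belonged to MCM4 (0.000559), KIF20A (0.000722), CDC20 (0.000753), PLK1 (0.000858) and MCM7 (0.000874). CDC6, CDT1, POLA1, RRM1, CCNE1, CDC25B, AURKB, CENPE and CENPF were not called.

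Other genes of the same machinery were read from 8 lists. Of 39 further fork and origin genes tested, 14 rose in vitrification II and 6 fell in vitrification I, and 18 were higher in vitrification II than in vitrification I, where the shares of all genes were 24.6, 9.77 and 34.7%. The GINS subunit GINS4 fell by 1.09 ± 0.34 in vitrification I (adjusted p = 0.0393) and rose by 1.97 ± 0.34 in vitrification II (adjusted p = 0.00152). CDC45, which joins MCM and GINS in the active helicase, fell by 1.39 ± 0.37 (adjusted p = 0.0187) and rose by 1.30 ± 0.37 (adjusted p = 0.0208). GINS4 stood at 1.42, 1.31 and 1.03 FPKM in fresh control, at most 0.0866 in vitrification I, and 8.30, 10.3 and 5.51 in vitrification II, so its groups were apart. Of 35 further mitosis genes, 13 rose in vitrification II and 1 fell in vitrification I, and the list included RACGAP1, the partner of KIF23 in centralspindlin, which rose by 2.90 ± 0.34 in vitrification II (adjusted p = 0.000217). RACGAP1 read 6.25, 4.07 and 5.69 FPKM in fresh control, 4.41, 4.38 and 4.24 in vitrification I, and 46.3, 59.8 and 34.6 in vitrification II. Condensin and cohesin genes rose in 9 of 18 cases in vitrification II, and the cohesin subunit RAD21 rose in vitrification I too (1.21 ± 0.36, adjusted p = 0.0278). In vitrification II, 1 of 16 APC/C genes and 1 of 7 nucleotide synthesis genes rose, with ANAPC1 at 1.57 ± 0.31 (adjusted p = 0.00303) and CTPS1 at 2.04 ± 0.42 (adjusted p = 0.00417). Other cyclin and kinase genes rose in 5 of 13 cases and E2F, RB and DREAM genes in 2 of 13, the latter E2F8 (1.79 ± 0.30, adjusted p = 0.00130) and LIN9 (1.61 ± 0.37, adjusted p = 0.00674). The counts in vitrification II are read against 24.6% of all genes called higher and those in vitrification I against 8.85% higher and 9.77% lower, and no difference between lists was tested. With median centring the counts called higher in vitrification II were 2 of 39 fork and origin genes (with 1 lower), 4 of 35 mitosis genes, 1 of 13 E2F, RB and DREAM genes, and 0 in the condensin and cohesin, APC/C, nucleotide synthesis and other cyclin and kinase lists. These counts are read against 3.62% of all genes called higher with that scaling. The vitrification II rises of RACGAP1 and E2F8 were still called with median centring, and those of GINS4, CDC45, RAD21, ANAPC1, CTPS1 and LIN9 were not. In vitrification I the RAD21 rise and the CDC45 and GINS4 falls were still called in that limma setting (adjusted p = 0.0145, 0.00748 and 0.0397). The RAD21 rise in vitrification I ended without fresh control 2 or 3, without vitrification I library 2 or 3, and with only those 2 groups fitted. The CDC45 fall ended without fresh control 1 or 2, without vitrification I library 1 or 3, and with no filter on low values. The fall of GINS4 in vitrification I ended in 12 of 22 alternatives, among them quantile normalization, the scale outside the mitochondrial genome and leaving out any 1 fresh or vitrification I library.

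**Figure D5:**
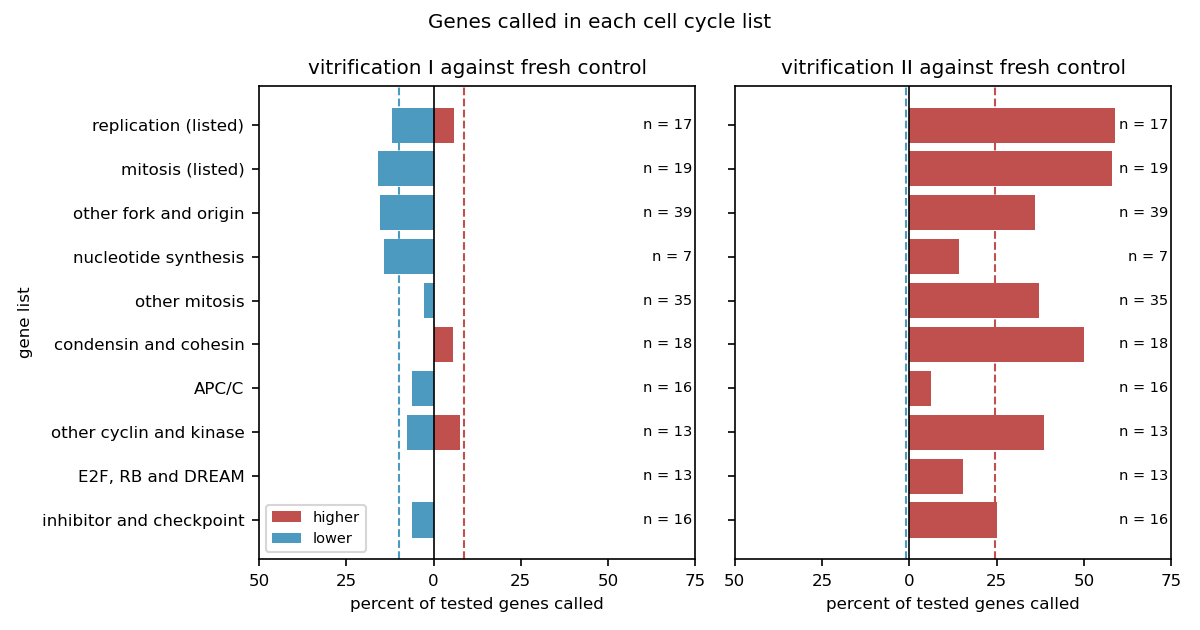
Percent of the tested genes of each cell cycle list called higher (red, to the right) or lower (blue, to the left) than fresh control, with the number tested at the right. Dashed lines mark the percent of all 9411 genes called higher and lower. In vitrification II both listed groups reach 10 of 17 and 11 of 19 genes, right of the 24.6% line, while APC/C, nucleotide synthesis and E2F, RB and DREAM genes lie left of it.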

How the data were processed

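The authors deposited FPKM per Ensembl pig gene, as the table's name has it, and tools listed, with no role, in the submitters' processing notes are Cufflinks 2.2.1, TopHat2 2.0.13, DESeq2 and FastQC. The genome build is not given in the sources used here. Of 12 samples, 11 had a column, 0 pairs were identical and 0 other columns of per-sample values were left out. A gene list gave a symbol for 15347 of 31781 identifiers (48.3%). Low values did not fall into steps of whole reads, so no counts were recovered, and the number of libraries limits the precision.

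The filter asked for an FPKM of 1 or more in 3 or more libraries and kept 9411 genes. Values were analysed as log2(FPKM + 1), so changes of low genes are understated. One mean per group was fitted with limma 3.58.1 (R 4.3.3, trend), with two-sided moderated tests of 6 pairs of groups, a moderated F test and Benjamini-Hochberg adjustment at 0.05, and the procedure was tested on simulated data. The listed genes and the 8 other lists were chosen with earlier results of these data known. Among the listed genes, values in every library are given for those called in at least 1 test and for CDC25B, which was called in none. The others are given mainly by range. Of each other list up to 4 genes called most often, ties by the F test, could be named. Replicate numbers did not pair the libraries. Alternatives were other scalings, filters, pseudocount, weights, models and each library left out. A planned search of promoter sequences was not run. One gene of the other lists is not reported here.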

Additional observations from a re-analysis of the deposited data

How the results depend on the processing

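Counts of called genes are given in the order vitrification, vitrification I and vitrification II against fresh control, vitrification II against vitrification I, vitrification I and vitrification II against vitrification, and the F test, where the main values were 0, 6, 21, 29, 4, 3 and 27. Array weights gave 3, 13, 33, 28, 2, 3 and 34, median centring 0, 7, 5, 13, 2, 3 and 14, quantile normalization 0, 7, 5, 17, 3, 2 and 16, and the total outside the mitochondrial genome 0, 6, 12, 16, 2, 0 and 16. A pseudocount of 0.1 gave 0, 6, 13, 27, 2, 0 and 23, no filter 0, 1, 5, 19, 1, 0 and 13, a filter at an FPKM of 5, which left 28 genes, 0, 6, 19, 23, 3, 3 and 23, no trend 0, 6, 21, 29, 4, 3 and 26, and the 2 groups alone 0, 4, 25, 26, 1 and 9. Among all 9411 genes the main fit called 129, 1752, 2422, 3614, 530, 563 and 4016. Over the 6 pairs, median centring called 62, 2011, 1003, 2643, 387 and 412 of all genes. Quantile normalization called 98, 2099, 676, 2649, 604 and 330, and the total outside the mitochondrial genome 172, 1844, 1312, 2257, 427 and 99. For every other setting the calls among all genes are not given, so its counts are not a result about the listed genes. For the listed genes, the replicate block gave 0, 6, 21, 29, 2, 4 and 28. Same-numbered libraries of different groups had correlations of their deviations from -0.16 to 0.14, and 3 of 11 libraries correlated best with their own number. Leaving out 1 library at a time gave 0 throughout, then 2 to 10, 6 to 24, 20 to 29, 0 to 12, 0 to 5 and 18 to 30. With vitrification I library 2 alone, added after the data had been seen, the counts touching that group were 1, 6 and 0, and 17 by the F test. That library was the highest of its group for 29 of 37 genes and the other groups supply its spread, so these counts say nothing of stability. In these settings 0 single-gene values reversed. Counting the setting with vitrification I library 2 alone, 25 of 139 single-gene results kept their side of the threshold in all. The causes of these shifts were not tested. Depth is unknown, so absence cannot be told from low coverage.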

Other observations

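Genes that restrain the cycle or respond to DNA damage formed another list. Against fresh control, 4 of 16 tested rose in vitrification II and 1 fell in vitrification I, and 8 were higher in vitrification II than in vitrification I, where the shares of all genes were 24.6, 9.77 and 34.7%. GADD45A, a growth arrest gene, had 87.7, 71.4 and 61.9 FPKM in fresh control, 60.9 and 48.4 in vitrification, 30.4, 25.2 and 24.4 in vitrification I, and 73.0, 77.9 and 119.8 in vitrification II. Only its fall in vitrification I passed against fresh control (-1.42 ± 0.33, adjusted p = 0.00930). BTG2, an antiproliferative gene, repeated the spread of CDK4 in fresh control, with 43.2, 3.11 and 5.10, and rose in vitrification II by 2.47 ± 0.70 (adjusted p = 0.0190) to 47.2, 49.6 and 76.0. GADD45B rose there as well (2.13 ± 0.49, adjusted p = 0.00712). With median centring 0 of the 16 were called higher in vitrification II, against 3.62% of all genes. The fall of GADD45A in vitrification I was still called with median centring but not on the scale outside the mitochondrial genome.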
